A study of Xenopus laevis with 4 samples.

Results

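Messages that the *Xenopus laevis* oocyte stores for meiosis and early development were followed in early gastrula embryos after knockdown of Gcn5. They were chosen by gene name as the models of *mos*, *zar1*, *zar1l*, *btg4*, *wee2*, *cpeb1*, *h1foo*, *42Sp43*, *42Sp50* and *fbxo43*, either homeolog (.L or .S). Of these 10 symbols 7 had rows under exactly these names, which gave 11 of the 45098 gene models of the table. The symbols *zar1l* and *wee2* were not analysed here, and *fbxo43* is given apart because its rows carry the name fbxo43-like. A mean normalized count of at least 10, the minimum for the test, was reached by 9 of the 11 models and by 11272 models in all.

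Knockdown embryos had received 0.8 ng of Gcn5-AS, a DNA oligonucleotide complementary to the message of *gcn5*, listed as *kat2a*. The Gcn5 protein is the histone acetyltransferase found in the SAGA and ATAC complexes. Control embryos had received water. Injection was at the 1-cell stage, embryos were collected at stage 10.5, and each group had 2 samples of 10 whole embryos from outbred animals. The paper reported that knockdown embryos formed a first blastopore groove, but that involution was disturbed and development arrested. It also reported signs of apoptosis, mostly on the ventral side. The part of this arrest in the differences below was not tested. The oligonucleotide is shown because it defines the knockdown, 5′ to 3′, with the 7 bases of its centre that are joined without modified linkages in capitals.
Gcn5-AS: tcaaaCACAAGCcgggtt
Its 11 outer linkages carry the dimethyl-ethylene-diamine modification, which slows its breakdown in the embryo.

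A growing oocyte transcribes and stores messages that are translated later, when transcription is silent. During meiotic maturation many of them are activated by lengthening of the poly(A) tail, and after fertilization many are deadenylated and then removed around the time when the embryonic genome becomes active. A read count at the gastrula stage does not separate stored from newly made message, and in whole embryos fewer cells with a message cannot be told apart from less message per cell.

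Reads assigned to gene models numbered 3679948 and 3610092 in the Gcn5-AS libraries, against 4093025 and 2351039 in the controls. Within each group X names the library with the larger size factor and Y the other, since the deposited means do not tell which is replicate 1 or 2. The libraries of Gcn5-AS X and Y differed from each other with an SD of log2 ratios of 0.82, and control X and Y with an SD of 0.71, against 0.80 to 1.12 between groups. The targeted *kat2a.L* had normalized counts of 52.9 (X) and 62.6 (Y) in Gcn5-AS, against 50.4 (X) and 103.5 (Y) in control, with a log2 fold change of −0.26 ± 0.41 (SE, n = 2 libraries per group) and an adjusted p of 0.742 in limma-voom. For *kat2a.S* the counts 13.7 and 35.5 stood against 27.9 and 45.7, with −0.67 ± 0.50 and 0.445. A decrease of the target thus did not pass the test in these reads. The sign turned without control Y for *kat2a.L* (0.19) and without Gcn5-AS X for *kat2a.S* (0.076). The paper measured the knockdown by other means. It reported less *gcn5* message by quantitative RT-PCR, less Gcn5 at promoters by chromatin immunoprecipitation, and rescue of the phenotype with human *GCN5* mRNA. Early gastrula markers were present, with a read in 47 of 47 models and summed counts of 12006 to 15759 in Gcn5-AS and 9851 to 10735 in control. Over all tested models 4.46% were called higher and 4.17% lower. Of 42 tested marker models 10 were called higher and 3 lower. Those called higher were both homeologs of *not*, *mix1*, *eomes*, *foxi2* and *gsc*, and those called lower were the keratin models *krt.L*, *krt5.7.S* and *krt12.S*. Markers of the first zygotic wave at the mid-blastula stage, with rows for 5 of 18 listed symbols, went both ways too. The *mix1* models, the 2 called of 5 tested, summed to 1291 and 716 in Gcn5-AS against 315 and 251 in control, and the other 8 models to 212 and 207 against 361 and 299.9. Most of the latter sum came from 1 gene, with *gs17.L* at 117 and 102 against 258 and 156, and *gs17.S* at 46.0 and 64.4 against 72.4 and 87.4. Among the same 8 models *fos.S* lay higher, at 28.9 and 29.9 against 6.97 and 24.2, without being called. The part of these marker differences in the results on the maternal messages was not tested. Later differentiation markers had a read in 10 of 19 models and sums of 84.1 to 125.7 against 49.8 to 144.7. Markers of ovarian somatic cells had a read in 7 of 18 models, with sums of 10.3 to 18.5 in Gcn5-AS and 13.4 to 15.5 in control, and the gonadotropin receptor genes *fshr* and *lhcgr* were at 0 in the 4 libraries.

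Of the 9 tested messages *mos.L* and *42Sp43.L* rose in Gcn5-AS embryos, 2.94-fold and 2.07-fold, and none fell. The call was an adjusted p under 0.1 from limma-voom over all 11272 models, of which 8.63% were called, 4.46% higher and 4.17% lower. The *cpeb1* homeologs were 1.93-fold and 1.54-fold the control level without passing the test. The tested models of *zar1*, *btg4*, *42Sp50* and *h1foo* lay between 0.78-fold and 1.32-fold. The median log2 fold change was 0.41 over the 9 models, which is the value of *btg4.S* (0.41 ± 0.62), and 0.02 over all models tested. With the deposited size factors, both Gcn5-AS libraries lay above both controls in 5 of the 9 models and in 26.3% of all tested models. In none of the 9 did both lie below, against 25.0% (51.4% in either direction). These shares and medians do not test the set, since its messages were chosen with earlier results of these data known.

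**Figure D1:**
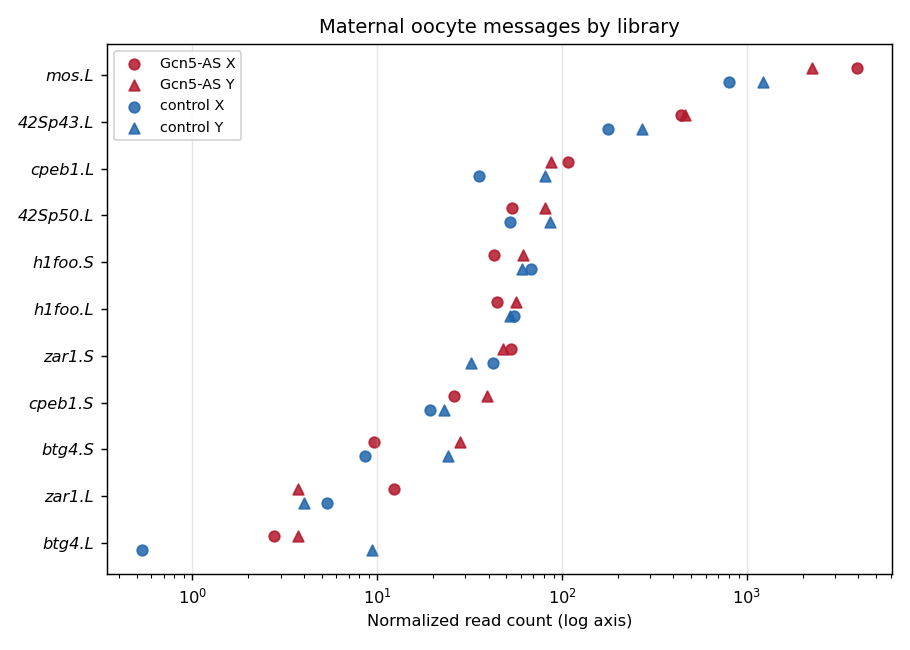
Normalized read count (log axis) of each of the 11 maternal message models, ordered by mean level, in Gcn5-AS X and Y (red) and control X and Y (blue). Each point is 1 library of 10 embryos; the Gcn5-AS points of *mos.L* at 3921 and 2244 lie above the control points at 796 and 1213, while those of *h1foo* and *42Sp50.L* mix with the controls.

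The message of *mos* encodes a serine/threonine kinase that activates the MAP kinase cascade in the maturing oocyte and takes part in holding the egg at metaphase of meiosis II. Its product is absent from normal cleaving embryos, where it would block division. Normalized counts of *mos.L* were 3921 and 2244 in Gcn5-AS (X, Y), against 796 and 1213 in control (X, Y). Both Gcn5-AS libraries lay above both controls, and X was the higher of the Gcn5-AS libraries by 1.75-fold. The log2 fold change was 1.55 ± 0.40 (SE, n = 2 per group), with a 95% interval from 0.72 to 2.39 and an adjusted p of 0.0306 in limma-voom.

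The reads behind these values, 5707 and 2402 in Gcn5-AS and 1485 and 902 in control, make counting error small beside the spread between libraries. The smallest ratio between any Gcn5-AS and any control library was 1.85-fold (Gcn5-AS Y over control Y), and the largest was 4.93-fold (Gcn5-AS X over control X). The ranges also stayed apart when reads were scaled to equal library totals (CPM), with 1551 and 665 CPM in Gcn5-AS against 363 and 384 CPM in control. The 10 most-read models of each library took 36.0% and 50.2% of the reads in Gcn5-AS (X, Y), against 40.3% and 49.6% in control (X, Y). With totals taken outside these models, *mos.L* stood at 2424 and 1336 CPM in Gcn5-AS against 607 and 761 CPM in control.

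The fold change of *mos.L* stayed above 0 in each setting tried, but the call did not. Without Gcn5-AS X the log2 fold change was 1.16 with an adjusted p of 0.205, and without control X it was 1.27 with an adjusted p of 0.572. With scaling by total reads it was 1.44 with an adjusted p of 0.26, where the median of all models shifted to −0.15. Without Gcn5-AS Y (1.97, adjusted p of 0.00242) and without control Y (1.88, adjusted p of 0.0759) the call was kept. With 1 library left in a group, that library is assumed to vary like those of the other group. Only an L homeolog of *mos* is listed, here and under this symbol in the RefSeq table of the later assembly Xenopus_laevis_v10.1.

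**Figure D2:**
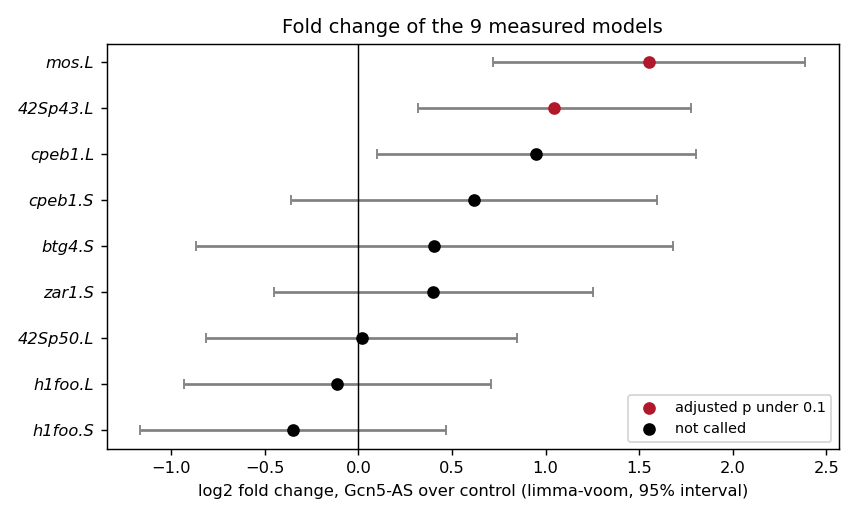
Log2 fold change of Gcn5-AS over control with its 95% interval from limma-voom, for the 9 tested models. Red points passed an adjusted p under 0.1; the intervals of *mos.L*, *42Sp43.L* and *cpeb1.L* lie above 0 and the other 6 span it.

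The products of *42Sp43* and *42Sp50* are the protein partners of the 42S particle, in which young oocytes store 5S ribosomal RNA and transfer RNA. The protein 42Sp43 binds 5S RNA through zinc fingers and is related to transcription factor TFIIIA, and 42Sp50 is related to elongation factor EF-1α. Normalized counts of *42Sp43.L* were 438 and 463 in Gcn5-AS (X, Y), against 178 and 270 in control (X, Y). The groups did not overlap, and the Gcn5-AS libraries lay closer together than the controls. The log2 fold change was 1.05 ± 0.35 (SE, n = 2 per group), with a 95% interval from 0.32 to 1.78 and an adjusted p of 0.0896 in limma-voom.

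That call was close to the threshold. It was kept without Gcn5-AS Y (1.01, adjusted p of 0.0626), with upper-quartile factors (1.01, 0.0884) and with reads summed per gene (1.05, 0.0981). It was lost without Gcn5-AS X (1.09, 0.159), without control X (0.74, 0.821), without control Y (1.34, 0.222), in limma-trend (1.04, 0.12) and with scaling by total reads (0.89, 0.542). Scaled to library totals, the groups still stayed apart, with 173 and 137 CPM in Gcn5-AS against 81.1 and 85.5 CPM in control.

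The partner message did not pass the test. Normalized counts of *42Sp50.L* were 53.6 and 81.3 in Gcn5-AS (X, Y), against 52.0 and 86.1 in control (X, Y), so that each group held a low and a high library. The log2 fold change was 0.02 ± 0.40, and its 95% interval from −0.81 to 0.85 leaves room for a change in either direction. Its sign turned with scaling (−0.17 by total reads, where the median of all models was −0.15). Reads of *42Sp43.L* per read of *42Sp50.L*, a ratio within a library that no scaling alters, were 8.18 and 5.7 in Gcn5-AS against 3.42 and 3.14 in control. This ratio was chosen after the values were seen and was not tested.

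**Figure D3:**
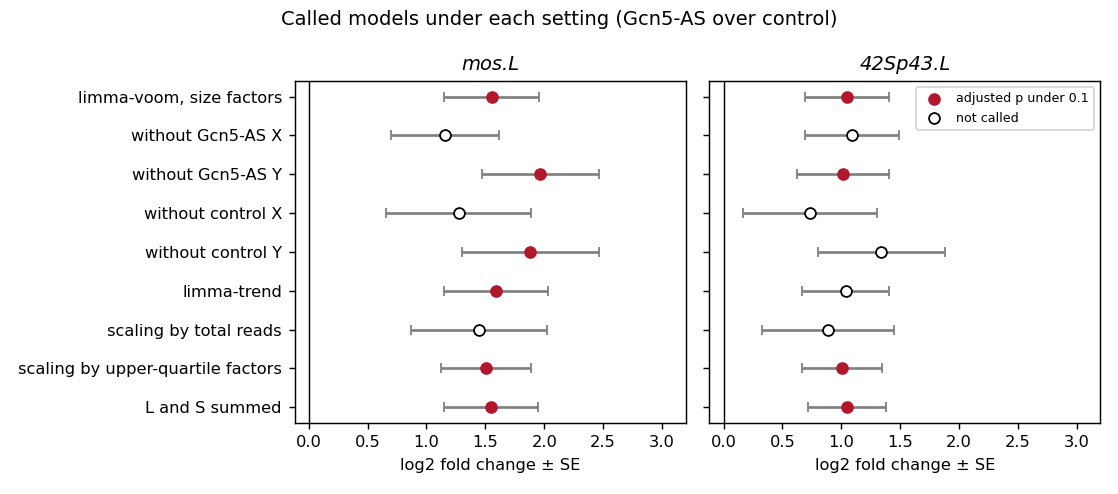
Log2 fold change ± SE of *mos.L* (left) and *42Sp43.L* (right), Gcn5-AS over control, with deposited size factors and under each other setting. Filled red points are called at an adjusted p under 0.1 and open points are not; the points lie between 1.16 and 1.97 for *mos.L* and between 0.74 and 1.34 for *42Sp43.L*.

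The *cpeb1* product binds the cytoplasmic polyadenylation element in the 3′ end of stored messages, among them that of *mos*, first masking them and then promoting their polyadenylation. Normalized counts of *cpeb1.L* were 107.9 and 86.9 in Gcn5-AS (X, Y), against 35.4 and 80.7 in control (X, Y). Control X was the low library, and control Y lay just under Gcn5-AS Y. The log2 fold change was 0.95 ± 0.41 with a 95% interval from 0.10 to 1.80, an unadjusted p of 0.0304 and an adjusted p of 0.179 in limma-voom. Without control X it was 0.26, and without Gcn5-AS Y it was 1.12 with an adjusted p of 0.0651.

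Normalized counts of *cpeb1.S* were 26.1 and 39.2 in Gcn5-AS against 19.3 and 22.9 in control. Here too both Gcn5-AS libraries lay above both controls. The log2 fold change was 0.62 ± 0.47 (adjusted p of 0.464, limma-voom). Reads of both homeologs together gave 134.0 and 126.1 against 54.7 and 103.5, with a log2 fold change of 0.86 ± 0.37 and an adjusted p of 0.202.

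The product of *zar1* binds the 3′ untranslated part of maternal messages and keeps them untranslated in the oocyte. Normalized counts of *zar1.S* were 52.9 and 47.6 in Gcn5-AS (X, Y), against 42.3 and 32.3 in control (X, Y). With these size factors the groups did not overlap, but the difference was small beside its error. The log2 fold change was 0.40 ± 0.41, with an adjusted p of 0.597 in limma-voom. Scaled to library totals, the groups did overlap, with 20.9 and 14.1 CPM in Gcn5-AS against 19.3 and 10.2 CPM in control. Its homeolog *zar1.L* was under the count minimum, with 18 and 4 reads in Gcn5-AS against 10 and 3 in control, or normalized counts of 12.4 and 3.74 against 5.36 and 4.03.

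The *btg4* product, a BTG/Tob family protein, brings the CCR4-NOT deadenylase to maternal messages, as known from mouse. Normalized counts of *btg4.S* were 9.62 and 28.0 in Gcn5-AS (X, Y), against 8.58 and 24.2 in control (X, Y). The libraries within a group differed more than the groups did. The log2 fold change of 0.41 ± 0.62 turned to −0.64 without control X and to −0.25 without Gcn5-AS Y, and was 1.27 without Gcn5-AS X. The homeolog *btg4.L* had 4 and 4 reads in Gcn5-AS against 1 and 7 in control, too few to test.

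The gene *h1foo* encodes the oocyte linker histone (known in *Xenopus* as B4), which packs chromatin in eggs and cleavage embryos before somatic H1 replaces it. Normalized counts of *h1foo.L* were 44.7 and 56.0 in Gcn5-AS (X, Y), against 54.7 and 52.4 in control (X, Y). Those of *h1foo.S* were 42.6 and 61.6 against 68.1 and 60.5. For both homeologs the ranges of the groups overlapped, and Gcn5-AS X was the lowest library. The log2 fold changes were −0.11 ± 0.40 (95% interval from −0.93 to 0.71) and −0.35 ± 0.40 (from −1.17 to 0.47), with adjusted p values of 0.898 and 0.633 in limma-voom. Without Gcn5-AS X the value of *h1foo.L* turned to 0.060.

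Set against this message in the same library, *mos.L* had 44.9 and 19.1 reads per read of both *h1foo* homeologs in Gcn5-AS (X, Y), against 6.48 and 10.7 in control (X, Y). Reads of *42Sp43.L* per *h1foo* read were 5.02 and 3.94 against 1.45 and 2.39. Reads of *mos.L* per read of *42Sp43.L* were 8.95 and 4.84 in Gcn5-AS against 4.47 and 4.49 in control, where only Gcn5-AS X stood apart. These within-library ratios were chosen after seeing the values and carry no test.

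The *fbxo43* product (Emi2) inhibits the anaphase-promoting complex and thereby acts with Mos in the metaphase arrest of the egg. Its rows, named fbxo43-like, lie outside the name rule. Normalized counts of *fbxo43-like.S* were 18.5 and 7.47 in Gcn5-AS (X, Y), against 5.36 and 10.8 in control (X, Y), with a log2 fold change of 0.98 ± 0.73 and an adjusted p of 0.451. Those of *fbxo43-like.L* were 6.87 and 12.1 against 1.61 and 4.03, under the count minimum.

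*X. laevis* is allotetraploid, and the rule found both homeologs for *cpeb1*, *h1foo*, *zar1* and *btg4*. Reads of *cpeb1* came mostly from L, with shares of 80.5% and 68.9% in Gcn5-AS (X, Y), against 64.7% and 77.9% in control (X, Y). Those of *h1foo* were near evenly divided, with 51.2% and 47.6% from L in Gcn5-AS against 44.5% and 46.4% in control. The *zar1* reads came mostly from S, with L shares of 18.9% and 7.27% against 11.2% and 11.1%, and so did those of *btg4*, with 22.2% and 11.8% against 5.88% and 28.0%. The exact 95% binomial intervals of the 4 libraries, which cover counting error only, spanned 54.6% to 86.6% for *cpeb1*, 35.5% to 60.1% for *h1foo*, 2.02% to 29.2% for *zar1* and 0.149% to 49.4% for *btg4*. The shares of Gcn5-AS and control overlapped except for *h1foo*, where both Gcn5-AS shares were above both control shares and lay inside the control intervals. Reads that fit both copies may have been assigned unevenly by the authors' counting.

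**Figure D4:**
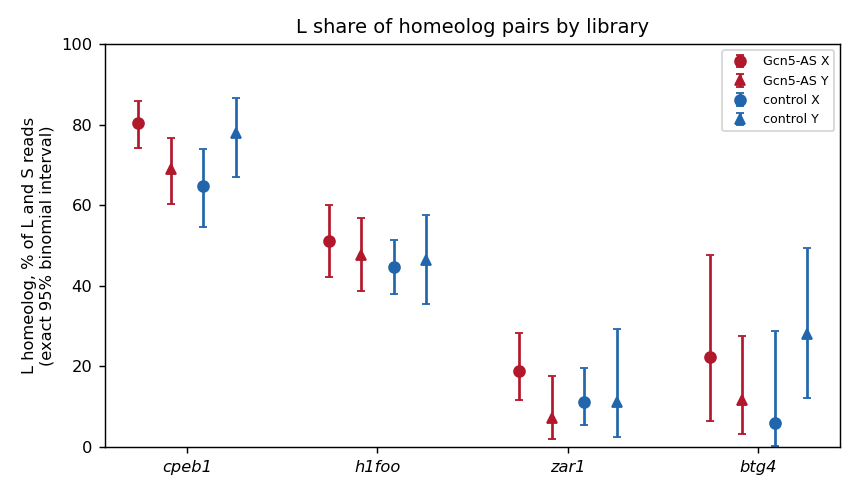
Share of L homeolog reads among L and S reads (%, vertical axis) in each library for *cpeb1*, *h1foo*, *zar1* and *btg4*, with exact 95% binomial intervals, Gcn5-AS in red and control in blue. The L share was highest for *cpeb1* (64.7% to 80.5%), near even for *h1foo* (44.5% to 51.2%) and lowest for *zar1* and *btg4*. For *cpeb1* the interval of Gcn5-AS X (74.2% to 85.8%) lies above that of control X (54.6% to 73.9%). Those of Gcn5-AS Y (60.4% to 76.6%) and control Y (67.0% to 86.6%) overlap both libraries of the other group. The letters X and Y do not pair libraries between groups.

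Related genes of oocyte RNA control were taken from lists of pathway partners, matched on the table's short symbols. Not every listed symbol had a row. Rows were found for 16 of 29 symbols of message storage, 23 of 30 of decay and 24 of 35 of the meiotic pathway. For the egg coat and oocyte identity they were found for 9 of 23, for 5S RNA storage for 6 of 13 and for germ plasm for 13 of 22. The counts called in each list are to be read beside the share over all tested models, 4.46% higher and 4.17% lower. Of 28 tested models for translational control and storage of maternal messages 4 were called higher and 2 lower, with a list median log2 fold change of −0.13. The largest counts among the called models were those of *cpeb2-like*, a relative of *cpeb1*. They were 989 and 527 in Gcn5-AS against 182 and 235 in control for *cpeb2-like.L* (3.48-fold, adjusted p of 0.00983, limma-voom), and 969 and 540 against 179 and 290.5 for *cpeb2-like.S* (3.17-fold, 0.0169). In both homeologs Gcn5-AS X was the highest library, as it was for *mos.L*. Counts of *lsm14b.L*, which encodes a component of stored messenger ribonucleoprotein particles, were 778 and 640 against 216 and 256 (3.01-fold, 0.0138). Those of *cpsf2.S*, a subunit gene of the cleavage and polyadenylation factor, fell to 19.2 and 20.5 in Gcn5-AS, against 85.2 and 68.6 in control (3.86-fold lower, 0.0158). The other called models, named after their values were seen, were *cpeb3.S* (3.23-fold higher in the fit, 2.62 as the ratio of mean counts) and *ddx6.L*. The latter, an RNA helicase gene of the same particles, was 2.62-fold lower in the fit.

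Of 38 models for deadenylation and decay 2 were called higher and 1 lower (median 0.16), beside 4.46% and 4.17% of all tested models. The deadenylase subunit gene *pan2-like.S* fell to 2.75 and 12.1 in Gcn5-AS, against 47.7 and 41.7 in control (8.31-fold lower in the fit, adjusted p of 0.0243, limma-voom). As a ratio of mean counts, Gcn5-AS over control, this was 0.167. Its homeolog *pan2-like.L* did not fall with it, at 5.50 and 13.1 against 6.43 and 2.69, but was under the count minimum. The *btg4* relative *btg3.L* had counts of 28.9 and 23.4 against 4.29 and 16.1 (4.22-fold in the fit, 0.0636). The ratio of its mean counts was 2.56. Those of *zfp36l2.L*, encoding an AU-rich element binding protein, were 1318 and 515 against 309 and 416 (2.28-fold, 0.0889). Its homeolog *zfp36l2.S* was not called, at 543 and 205 against 212 and 167 (1.77-fold, 0.228). The abundant *btg1.S* was at 433 and 423 against 362 and 356 (log2 fold change 0.25 ± 0.34, adjusted p of 0.701).

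While 8.63% of all tested models were called in either direction, the meiotic maturation and metaphase arrest pathway, in which Mos acts, had 1 called of 41. Its median was 0.22, with 28 models above 0 and 13 below. In 17 of the 41 both Gcn5-AS libraries lay above both controls and in 5 below both, against 26.3% and 25.0% of all tested models. The called model was *aurka.L*, an Aurora kinase gene, with counts of 140 and 163 in Gcn5-AS against 55.2 and 72.6 in control (2.42-fold, adjusted p of 0.0522, limma-voom). Its homeolog *aurka.S* did not rise, at 63.2 and 82.2 against 79.9 and 118.3 (log2 fold change −0.41 ± 0.38, adjusted p of 0.556). The abundant *plk1.S*, *ccne1.S* and *ccna1.L*, genes of Polo-like kinase and cyclins E and A, had log2 fold changes of 0.67 ± 0.36, 0.16 ± 0.35 and 0.92 ± 0.37, with adjusted p values of 0.275, 0.825 and 0.149.

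The tested models of the egg coat and of oocyte identity, a list with few of its symbols found, lay more often lower than higher. Their median was −0.50. Of 11 tested models 3 had a log2 fold change above 0 and 8 below, and 1 was called higher and 2 lower. Both Gcn5-AS libraries lay above both controls in 2 models and below both in 7, against 26.3% and 25.0% of all tested models. The oocyte growth factor gene *bmp15.L* had counts of 66.6 and 55.1 in Gcn5-AS against 15.6 and 28.2 in control (3.16-fold, adjusted p of 0.0384, limma-voom). The other oocyte growth factor gene, *gdf9.L*, was at 73.5 and 83.1 against 117.9 and 118.3 (log2 fold change −0.60 ± 0.37, 0.348). The nucleoplasmin family gene *npm3.S* (18.5 and 43 against 68.1 and 64.6) and the egg envelope gene *zpax.L* (3.44 and 9.34 against 34.3 and 16.1) were called lower at adjusted p values of 0.0989 and 0.0993. None of 7 models for 5S RNA storage and elongation factors was called (median −0.24). Of these *eef1g.L* was at 92.1 and 128.0 against 129.2 and 156.0, and *eef1b2.L* at 65.3 and 164.4 against 113.1 and 154.7. The TFIIIA gene *gtf3a.L*, less abundant and chosen for its relation to *42Sp43* after its values were seen, was at 9.62 and 29.0 against 4.82 and 25.6 (adjusted p of 0.382). Among 9 germ plasm and vegetally localised models *grip2.L* fell to 37.1 and 62.6, against 122.2 and 122.4 in control (2.56-fold lower, 0.0484), and the abundant *nanos1.L* was at 251 and 482 against 231 and 416 (median 0.18).

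**Figure D5:**
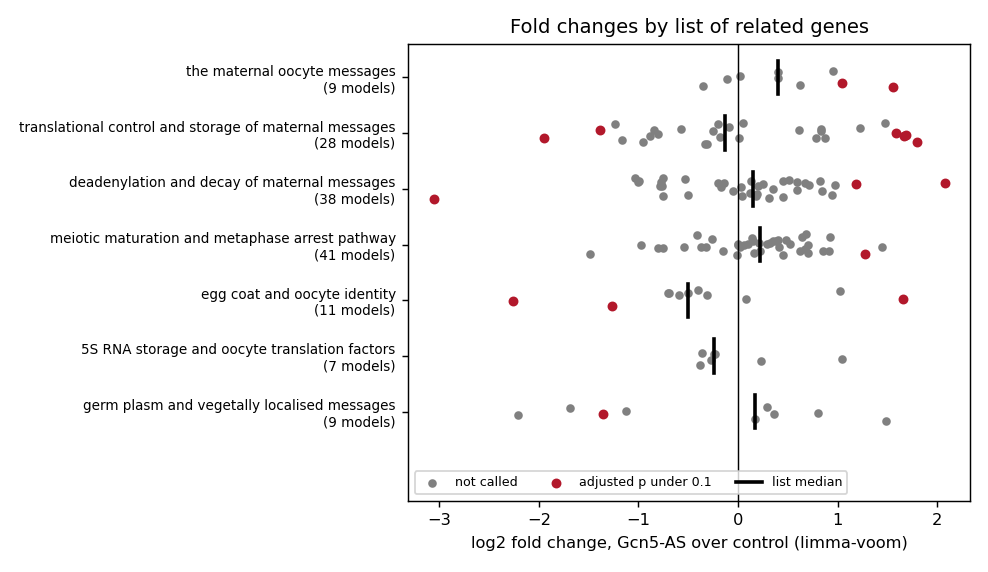
Log2 fold change of Gcn5-AS over control (limma-voom, horizontal axis) for each tested model of the maternal oocyte messages and of 6 lists of related genes (rows), with list medians as bars. Models called at an adjusted p under 0.1 (red) lie on either side of 0 in the lists of message storage, decay and egg coat, and medians lie between −0.50 and 0.41.

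The calls of the 14 called models of these lists changed when single libraries were left out, as calls over all tested models did. Most were lost when Gcn5-AS X, control X or control Y was left out, and so were most calls over all models. Without Gcn5-AS Y the calls were kept, and more models were called in all. Such fits have fewer libraries to estimate the spread, so a lost call alone does not show that the estimate rested on the library left out. Leaving out libraries gave log2 fold changes from 1.45 to 1.73 for *lsm14b.L* and from −2.08 to −1.78 for *cpsf2.S*. For *btg3.L* the range was wider, from 0.66 to 2.55. None of the 14 turned its direction in any of these fits. With scaling by total reads 2 were called, *cpsf2.S* and *pan2-like.S*, beside 19 models called higher and 171 lower in all. The log2 fold changes of *cpeb2-like.L*, *cpeb2-like.S*, *lsm14b.L* and *cpsf2.S* without control X were 1.60, 1.31, 1.46 and −1.78. Without Gcn5-AS X the log2 fold changes of *zfp36l2.L*, *npm3.S*, *pan2-like.S* and *zpax.L* were 0.53, −0.63, −1.86 and −1.46. Without Gcn5-AS Y those of *zfp36l2.L* and *pan2-like.S* were 1.89 and −3.89, and without control X those of *btg3.L*, *cpeb3.S* and *zpax.L* were 0.66, 0.92 and −1.60. The list median turned its sign for message storage without Gcn5-AS Y (0.12) and without control X (0.062). That of germ plasm turned without Gcn5-AS Y (−0.28) and without control X (−0.38). The median of 5S RNA storage turned without Gcn5-AS X (0.084), and that of message decay with total reads (−0.067), where the median of all models was −0.15.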

How the data were processed

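Ribosomal RNA was depleted from total RNA, and the authors mapped single-end reads of 75 nucleotides with STAR to genome JGI 9.1. Read counter, annotation release, strand setting and versions were not given in the sources used here, and reads of overlapping or antisense genes could be mixed. The deposited signal values are read counts per gene model divided by size factors of the authors' count model and averaged over the 2 libraries of a group. The authors' own fold changes and p-values are also in the table and were not used.

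Each mean has exactly 1 solution in whole reads of 2 libraries (21410 Gcn5-AS and 21721 control means, relative tolerance 3e-14), from which reads and size factors (1.46, 1.07, 1.87 and 0.744 for Gcn5-AS X, Y, control X, Y) were recovered. The design had foreseen this, and since the deposited table holds no counts no count model was run. Reads were fitted with limma 3.58.1 (voom, R 4.3.3), two-sided, with Benjamini-Hochberg adjustment over 11272 models and a threshold of 0.1. Folds between the groups are those of this fit, which weights each count, and can differ from the ratio of mean counts where reads are few. In simulated counts of this comparison (10935 models) 8 of 97 changes of a log2 fold change of 1 and 78 of 99 of 2 were found, and 16 of 102 calls were false. The simulation gave every model and both groups the same dispersion (0.078), estimated from abundant models. Its rates need not hold for the real libraries, whose spread can differ by model and group. An exact permutation test of 2 against 2 cannot go below 0.333. Since no label names the clutch of a sample, the p-values reflect the spread between the samples at hand, possibly a technical one.

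All members are named. From other lists up to 4 models are named: called ones first, then the most abundant. The models *cpeb3.S*, *ddx6.L*, *gtf3a.L*, *pan2-like.L*, *aurka.S*, *lsm14b.S*, *cpsf2.L*, *zfp36l2.S* and *fos.S*, and the called markers beyond 4, fall outside this rule. They were named after their values were seen. Groups follow the sample titles, since the control labels describe the same oligonucleotide injection as the knockdown labels. Members and lists were chosen with earlier results of these data known. Of the 11 model names 10 matched RefSeq symbols or synonyms (Xenopus_laevis_v10.1, used for names only), and *h1foo.L* did not. Alternatives were other scalings, limma-trend, other count minimums, an adjusted p under 0.05, summed homeologs and leaving out each library. Python 3.11.15 was used.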

Additional observations from a re-analysis of the deposited data

How the results depend on the processing

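No paired analysis was possible because the recovered libraries carry no replicate numbers. The fit with the deposited size factors called 503 models higher and 470 lower. Separate fits or thresholds called 320 and 197 with a mean count of at least 50, 19 and 171 with scaling by total reads, 223 and 242 at an adjusted p under 0.05, and from 6 to 1421 higher and from 76 to 836 lower with 1 library left out. Of the maternal messages 2 were called with the deposited factors, 1 (*mos.L*) with no count minimum beyond 1 read, in limma-trend and at an adjusted p under 0.05, 0 with total reads, and from 0 to 3 with 1 library left out, where the third, without Gcn5-AS Y, was *cpeb1.L*. Log2 fold changes with total reads were 1.44 for *mos.L* and 0.89 for *42Sp43.L*, and that of *42Sp43.L* was 1.04 in limma-trend, none of them called. Leaving out libraries gave from 1.16 to 1.97 for *mos.L*, from 0.74 to 1.34 for *42Sp43.L*, from −0.39 to 0.34 for *42Sp50.L*, from −0.64 to 1.27 for *btg4.S*, from −0.27 to 0.060 for *h1foo.L*, from −0.85 to 0.19 for *kat2a.L* and from −1.27 to 0.076 for *kat2a.S*. The value near 0 of *42Sp50.L* was −0.020 in limma-trend, −0.17 with total reads, −0.034 with upper-quartile factors and −0.034 as the ratio of means plus 1. Total-read scaling moved the median of all models to −0.15. The cause of these shifts was not tested. Depth limits *zar1.L* and *btg4.L*, which have at most 18 reads in a library.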
